A study of Mus musculus with 6 samples.

Results

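Conventional dendritic cell (cDC) nuclei were picked out of the snRNAseq libraries of 6 mouse livers by their transcripts, and 87 were found among 39012 kept nuclei, or 0.223%. A nucleus counted as kept with over 200 and under 5000 detected genes and under 5% of its unique molecular identifiers (UMIs, each standing for 1 captured RNA molecule) from mitochondrial genes. A kept nucleus was called a cDC nucleus when it held at least 2 of the 7 genes Flt3, Xcr1, Clec9a, Cd209a, Zbtb46, Ccr7 and Clec10a and at least 1 UMI of the MHC class II genes Cd74, H2-Aa or H2-Ab1. It also had to hold 0 UMIs of Siglech, a plasmacytoid dendritic cell gene, and of Clec4f, a Kupffer cell gene, and at most 1 UMI in sum of Stab2 and Ptprb (endothelial), Skap1 (T cell), Ebf1 (B cell) and Reln (stellate cell). The levels of these genes chose the nuclei, so they are given as a description and were not tested.

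The livers came from male DIAMOND mice, a cross of 2 strains (129A1/SvIm and C57BL/6J) used as a diet-induced model of fatty liver disease that goes on to liver tumors. Diets began at 2 months of age. Ctrl mice ate chow for 40 weeks, Pre-T mice a Western diet (rich in fat, and sugar in the drinking water) for 40 weeks, and Post-T mice the Western diet for 48 weeks, with 2 mice in each group. The diet groups were kept in separate cages, so cage and diet cannot be told apart. The titles of the Post-T libraries say tumor whereas their source and tissue entries say liver, so whether Post-T nuclei came from tumor tissue or from the liver around it cannot be told apart, and Post-T also differs from Pre-T by 8 weeks of diet.

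Dendritic cells take up antigen, carry it to lymph nodes and present it to T cells on MHC molecules. Conventional dendritic cells grow from bone marrow precursors that need the receptor FLT3, and they fall into cDC1, which depend on the transcription factors IRF8 and BATF3 and present antigen from dying cells to CD8 T cells, and cDC2, which depend more on IRF4, carry the surface protein SIRPA and mainly prime CD4 T cells. After sensing danger both kinds can mature, switch on CCR7 and migrate to the draining lymph node, and in the liver they lie mostly around the portal tracts.

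The cDC nuclei held a median of 2592 UMIs (range 543 to 13631) and 1568 genes. The median per mouse was 2177 to 3056 UMIs in cDC nuclei and 1623 to 2805 in all kept nuclei. Summed over the cDC nuclei of a mouse, the data came to 44959 UMIs in Ctrl 1, 26548 in Ctrl 2, 95736 and 78696 in the Pre-T mice and 12038 and 6111 in the Post-T mice, so levels in the Post-T mice rest on few molecules. The libraries shared 181 barcodes with each other, and 1 cDC nucleus, of Pre-T 1, had a barcode that was also in Post-T 2. Levels below are CPM, the UMIs of a gene scaled to equal totals, of the summed UMIs of the nuclei named. Intervals are 95% exact binomial intervals and cover counting error only.

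Flt3, the receptor for the growth factor of dendritic cell precursors (chr5:147330741-147400489, GRCm38, minus strand), had a UMI in 67 of the 87 cDC nuclei, or 77% (interval 66.8 to 85.4%). Its share was 0.475% of 7152 endothelial-rule nuclei (at least 2 UMIs in sum of Stab2 and Ptprb), a class that should lack it and whose median depth per mouse was 1836 to 3883 UMIs. Zbtb46, a transcription factor of the cDC lineage (chr2:181387762-181459426, minus strand), was in 77 cDC nuclei, or 88.5%, but also in 33.8% of endothelial-rule nuclei, so it set cDC nuclei apart far less than Flt3 did. The pair Flt3 and Zbtb46 was found together in 60 of the 87, and in 25 of these they were the only genes of the 7. Cd209a, a lectin receptor of cDC2 (chr8:3743397-3748984, minus strand), was in 17 cDC nuclei against 0.14% of endothelial-rule nuclei. Xcr1, the chemokine receptor that marks cDC1 (chr9:123852315-123862029, minus strand), was in 11 against 0.0419%. Ccr7, the receptor of migrating dendritic cells (chr11:99144196-99155077, minus strand), was in 10 against 0.489%, and Clec10a, a lectin receptor of cDC2 (chr11:70156197-70170834, plus strand), in 10 against 0.35%. At least 1 of Flt3, Xcr1, Cd209a and Ccr7 was present in 76 of the 87 cDC nuclei, and the label cDC rests on these genes, which the rule itself used.

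Clec9a, the cDC1 receptor for the actin of dead cells (chr6:129408862-129424763, plus strand), was in 26 cDC nuclei (29.9%) and in 11.2% of endothelial-rule nuclei, the next highest share there after that of Zbtb46. Among nuclei picked by plasmacytoid dendritic cell genes (plasmacytoid-rule nuclei, defined below), 40 of 154 held it, or 26%. Clec9a thus hardly set cDC nuclei apart from these. Its gene overlaps the end of Clec1b (chr6:129397297-129409335, plus strand), which liver endothelial cells express, and reads in the shared stretch cannot be given to one of them by strand. Clec9a was found in 29.2% of the endothelial-rule nuclei with a Clec1b UMI and in 7.97% of those without one. Among cDC nuclei, 12 held Clec1b, 3 in Pre-T 1 and 9 in Pre-T 2, and 8 of these 12 also held Clec9a. Clec9a with Zbtb46 were the only genes of the 7 in 7 cDC nuclei, 3 of which had over 5000 UMIs. How far Clec1b or free RNA contributed to these Clec9a UMIs was not tested.

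At the edges of the rule, 437 kept nuclei held exactly 1 of the 7 genes and met every other term, 52 cDC nuclei held exactly 2, 26 held 3 and 9 held 4 or more. Among the 622 kept nuclei with at least 2 of the 7 genes, 295 had no MHC class II UMI, a further 108 held Siglech or Clec4f, and another 132 held 2 or more UMIs of the remaining exclusion genes. Of the cDC nuclei, 70 had 0 exclusion UMIs and 17 had 1, and 10 had just 1 MHC class II UMI. The choice also depended on depth: when each nucleus was thinned to 500 UMIs, 19 nuclei met the rule, 4 in Ctrl 1, 1 in Ctrl 2, 9 and 3 in the Pre-T mice and 0 and 2 in the Post-T mice.

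In order to determine whether the cDC nuclei varied with the diet, their share of kept nuclei was taken in each mouse. Both Pre-T livers held a larger share than both Ctrl livers, and both Post-T livers a smaller one, at the depth of the libraries as deposited. The rule found 11 of 7231 nuclei in Ctrl 1 and 11 of 7772 in Ctrl 2, 0.152% (interval 0.076 to 0.272%) and 0.142% (0.0707 to 0.253%). It found 31 of 5407 in Pre-T 1, 0.573% (0.39 to 0.813%), and 28 of 7846 in Pre-T 2, 0.357% (0.237 to 0.515%). In Post-T 1 it found 4 of 5433, 0.0736% (0.0201 to 0.188%), and in Post-T 2 it found 2 of 5323, 0.0376% (0.00455 to 0.136%). The groups did not overlap, although the intervals of both Ctrl mice overlapped those of Pre-T 2 and of both Post-T mice. The mean share was 0.147% ± 0.00749 (SD, n = 2) in Ctrl, 0.465% ± 0.153 (n = 2) in Pre-T and 0.0556% ± 0.0255 (n = 2) in Post-T, ratios to Ctrl of 3.17 and 0.379. Each comparison of 2 with 2 mice gave p = 0.333 in a two-sided exact permutation test (adjusted over 4 comparisons, 0.444), the smallest p this design allows. Pooling the 4 mice on Western diet against the 2 on chow gave a difference of 0.114 percentage points (exact permutation p = 0.733, adjusted 0.733).

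Leukocyte nuclei as a whole also made up more of the Pre-T libraries. Nuclei with a UMI of Ptprc, the pan-leukocyte gene CD45, made up 14.9% and 13.9% of kept nuclei in the Ctrl mice, 38.7% and 39.5% in the Pre-T mice, and 27.1% and 14.1% in the Post-T mice. Of the cDC nuclei, 83 held Ptprc. As a share of Ptprc+ nuclei they were 1.02% in both Ctrl mice, 1.38% in Pre-T 1 and 0.839% in Pre-T 2, so Ctrl lay between the Pre-T mice on this scale. They were 0.272% in Post-T 1 (4 of 1472, interval 0.0741 to 0.694%) and 0.266% in Post-T 2 (2 of 751, 0.0323 to 0.959%), below the 4 other mice. The order of Pre-T and Ctrl thus turned on the denominator, whereas the Post-T mice were lowest on both, on 6 nuclei in all. At equal depth the groups overlapped: with nuclei thinned to 500 UMIs, the share of kept nuclei was 0.0553% and 0.0129% in Ctrl, 0.166% and 0.0382% in Pre-T and 0% and 0.0376% in Post-T, so Pre-T 2 lay below Ctrl 1 and Post-T 2 above Ctrl 2. The ratio of the mean share to that of Ctrl was then 3 in Pre-T and 0.551 in Post-T, on 19 nuclei in all (exact permutation p = 0.667 for each).

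**Figure D1:**
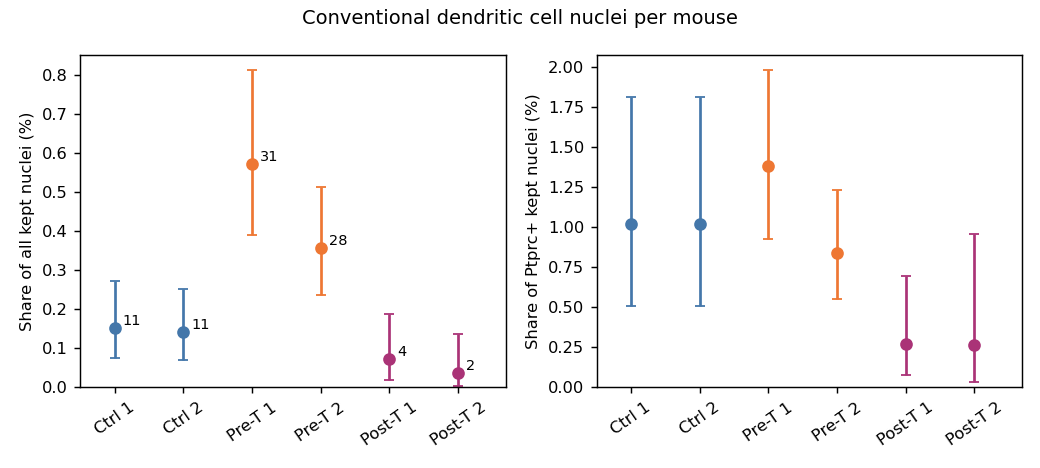
Share of cDC nuclei (percent) in each of the 6 mice, of all kept nuclei on one side and of Ptprc+ kept nuclei on the other, where points are mice and bars are 95% exact binomial intervals. The Pre-T mice lie above the Ctrl mice among all kept nuclei (0.573% and 0.357% against 0.152% and 0.142%) but on either side of them among Ptprc+ nuclei.

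Sorted by the genes of the rule that mark a subset, 27 cDC nuclei had a UMI of the cDC1 genes Xcr1 or Clec9a and none of the cDC2 genes Cd209a or Clec10a, and are called cDC1-gene nuclei below. The reverse held for 23, called cDC2-gene nuclei. Both kinds of gene were found in 2 nuclei and neither kind in 35, of which 10 held Ccr7. No nucleus held Xcr1 or Clec9a together with Cd209a, none held Ccr7 with any of the 4 subset genes, and Xcr1 was found with Clec9a in 8 of its 11 nuclei. The Ctrl mice had 4 and 2 cDC1-gene nuclei, the Pre-T mice 10 and 9, and the Post-T mice 1 each. The cDC2-gene nuclei numbered 4 and 3 in Ctrl, 10 and 6 in Pre-T and 0 in both Post-T mice. Ccr7 nuclei were 0 and 3 in Ctrl, 3 and 4 in Pre-T and 0 in Post-T. The cDC1-gene share of nuclei with genes of 1 subset averaged 45% ± 7.07 (SD, n = 2) in Ctrl, 55% ± 7.07 (n = 2) in Pre-T and 100% ± 0 (n = 2) in Post-T, where it stood on 1 nucleus per mouse. This share is made of genes that the rule used to pick the nuclei. It is therefore given as a description without p-values, and no difference between diets is read from it.

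The kinds also differed in genes outside the rule. These are counts of nuclei pooled over the mice and were not tested, since Pre-T 1 alone had at least 10 nuclei of both kinds, and the genes shown were chosen from the lists with their values known. The cDC1-gene nuclei, with a median of 3182 UMIs against 2301 in cDC2-gene nuclei, carried the genes known from cDC1: all 12 genes of the cDC1 list outside the rule had a higher pooled level in them. Other lists leaned one way too. Of 16 lipid genes 13 were higher in cDC1-gene nuclei and 3 lower, and of 10 proliferation genes 8 and 1. Of 12 hepatocyte markers 1 was higher there and 11 lower. Single nuclei held many of these UMIs. One cDC1-gene nucleus of Pre-T 1 held 270 lipid UMIs, and 2 others of that mouse held 16 and 20 proliferation UMIs. A cDC2-gene nucleus of Ctrl 1 held 347 hepatocyte UMIs. How far these list counts rest on such nuclei was not tested. No share over all genes is given beside the list counts of these kinds. Deep nuclei also weigh on the pooled levels. The 27 cDC1-gene nuclei include the 3 over 5000 UMIs with Clec9a and Zbtb46 alone (6415, 10839 and 13377 UMIs). The 23 cDC2-gene nuclei include 2 of Ctrl 1 with 7943 and 13631 UMIs. Wdfy4, which cDC1 need to cross-present antigen from cells, was in 22 of the 27 cDC1-gene nuclei (3753 CPM) and in 11 of the 23 cDC2-gene nuclei (262 CPM). Irf8, the transcription factor of cDC1, was in 22 (1283 CPM) against 5 (110 CPM), and Naaa, an enzyme that breaks down fatty acid amides, in 18 (656 CPM) against 4 (55.1 CPM). Tlr3, the sensor of double-stranded RNA, was in 12 against 0 (0 of 23 allows a share of up to 13%), Rab7b, a small GTPase of endosomes, in 12 against 0, Gcsam in 11 against 0, and Tlr11, a sensor of microbial profilin, in 14 against 0. The integrin gene Itgae (CD103) was in 10 against 1. Cadm1, an adhesion molecule of cDC1, was found in 21 against 9 (1939 and 800 CPM) and Batf3 in 8 against 2, where the order of the levels turned without Pre-T 1 (85.1 against 86.2 CPM).

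Of the 10 genes of the cDC2 list outside the rule, 9 had a higher pooled level in the cDC2-gene nuclei. Zeb2, of the pan-cDC list and a transcription factor needed for cDC2, was in 21 of 23 (1875 CPM) against 8 of the 27 cDC1-gene nuclei (589 CPM). Sirpa was in 14 (386 CPM) against 5 (154 CPM), Cd300a, an inhibitory receptor, in 13 (372 CPM) against 6 (106 CPM), and Irf4 in 6 (96.5 CPM) against 1 (9.65 CPM). Spi1, the myeloid factor PU.1, was in 19 (634 CPM) against 16 (222 CPM), Csf1r, the receptor for M-CSF, in 10 against 3, and Il1b in 6 against 1. Of 10 genes of MHC class II presentation 4 were higher in cDC1-gene and 6 in cDC2-gene nuclei, and of 14 of MHC class I presentation 11 and 3. Ciita, the master regulator of MHC class II, was at 813 CPM in cDC2-gene and 733 CPM in cDC1-gene nuclei, and H2-Eb1, an MHC class II beta chain, at 937 and 878 CPM, and the order turned for Ciita without Pre-T 1 (474 and 664 CPM) and for H2-Eb1 without Pre-T 2. Without Pre-T 2, Il1b was at 83.6 CPM in cDC2-gene nuclei (234 CPM with it), and Zeb2 and Sirpa were at 323 and 73.4 CPM in cDC1-gene nuclei, with the order of the kinds kept.

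In the 10 Ccr7 nuclei, 16 of the 20 genes of the mature dendritic cell list had a higher pooled level than in the other 77, 2 had a lower one (Cd200 and Pdcd1lg2, both at 0 UMIs in Ccr7 nuclei) and 2 were at 0 in both (Ccl17 and Marcksl1). Socs2, a brake on cytokine signalling, was in 7 of 10 against 1 of 77 (471 and 4.15 CPM), and Fscn1, the actin bundler fascin, in 4 against 0 (429 CPM, and 138 CPM without Pre-T 2). Il4i1, an enzyme that degrades amino acids, was in 6 against 6 (771 and 41.5 CPM) and Anxa3 in 5 against 5 (643 and 29.1 CPM). Relb, a transcription factor of the alternative NF-kB pathway, was in 7 against 19 (943 and 208 CPM), and Cd83, a surface protein of mature cells, was at 771 against 137 CPM. Cd80, a ligand of CD28, was at 943 against 112 CPM, but 20 of its 22 UMIs in Ccr7 nuclei were in Pre-T 1, and without that mouse it was at 120 against 145 CPM. On the other side, Bcl11a was in 0 of 10 against 40 of 77 and Naaa in 0 against 28, where a count of 0 in 10 nuclei allows a share of up to 30%. The MHC class II genes of the rule summed to 1628 CPM in Ccr7 nuclei and 3614 CPM in the rest, and to 834 CPM in the Ccr7 nuclei without Ctrl 2.

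**Figure D2:**
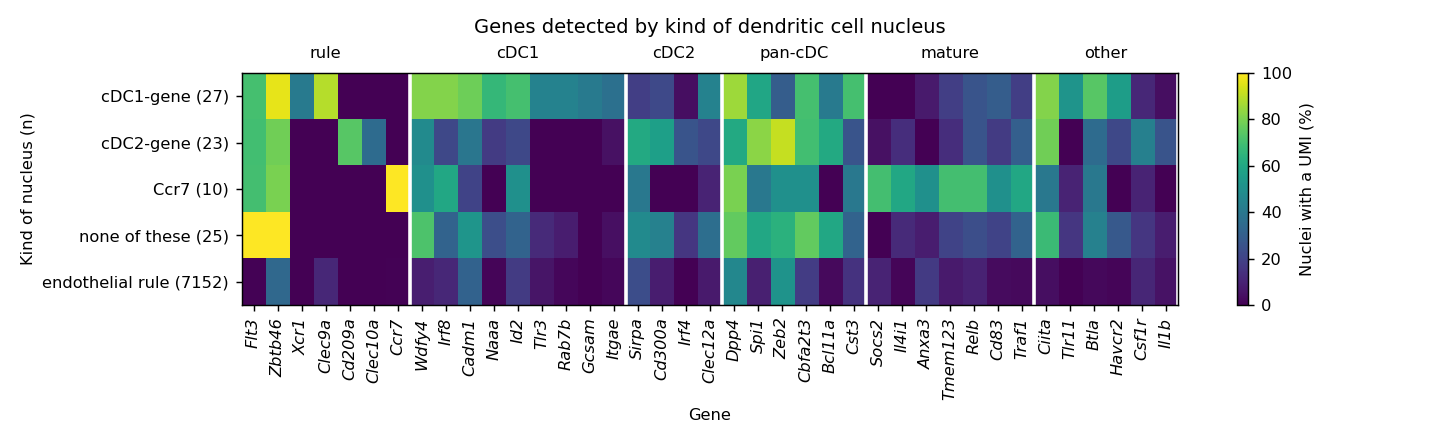
Percentage of nuclei with a UMI of each gene (colour, columns), by kind of nucleus (lines, with the number of nuclei): cDC1-gene, cDC2-gene, Ccr7 and the remaining cDC nuclei, and endothelial-rule nuclei. Wdfy4, Irf8, Tlr3 and Rab7b are found in more of the cDC1-gene than of the cDC2-gene nuclei (12 of 27 against 0 of 23 for Tlr3), Zeb2 and Spi1 in more of the cDC2-gene nuclei, and Socs2 in 7 of the 10 Ccr7 nuclei.

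In order to determine which genes set cDC nuclei apart from the nearest myeloid cells, they were compared with monocyte-rule nuclei of the same mice. These held at least 2 of Ccr2, Ly6c2, Vcan, F13a1, Chil3, Plac8 and Treml4 under the same limits and exclusions, 320 in all, with a median per mouse of 2132 to 2528 UMIs. The fit paired both sums within Ctrl 1, Pre-T 1 and Pre-T 2, the mice with at least 10 nuclei of both kinds, and left out the genes of either rule. Of 10467 genes, 295 passed an adjusted p of 0.05 in edgeR (2.82%), 164 higher in cDC nuclei (1.57%) and 131 lower (1.25%). The count was 66 without Pre-T 1 and 63 without Pre-T 2, 453 without Ctrl 1, and 67 by DESeq2.

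Of 10 tested cDC1 genes outside the rule, 9 were higher in cDC nuclei and 0 lower, with a median log2 fold change of 2.88 against -0.06 over all genes tested. Wdfy4 (chr14:32959547-33185508, minus strand) stood at 1557, 2120 and 1525 CPM in the cDC nuclei of Ctrl 1, Pre-T 1 and Pre-T 2 and at 182, 186 and 214 CPM in their monocyte-rule nuclei, a log2 fold change of 3.18 ± 0.31 (SE, edgeR adjusted p = 2.03e-21). Every cDC sum of Wdfy4 lay well above every monocyte-rule sum. Naaa was at 200, 376 and 267 CPM against 0, 41.3 and 51.7 CPM, a log2 fold change of 2.86 ± 0.43 (edgeR adjusted p = 1.13e-08). Irf8 was higher by 2.04 ± 0.33 (edgeR adjusted p = 1.6e-07) and Cadm1 by 1.49 ± 0.29 (edgeR adjusted p = 4.43e-05) on the log2 scale, and Id2, Itgae, Tlr3, Rab7b and Gcsam were the other genes called. Wdfy4 and Naaa were called under every alternative run. DESeq2 called 5 of the 9, 4 remained without Pre-T 1 and 5 without Pre-T 2. None of the 7 tested cDC2 genes was called, with a median of -0.48.

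Of 9 tested genes of MHC class II presentation outside the rule, 4 were higher and 0 lower, with a median of 1.78. The cDC rule required an MHC class II UMI and the monocyte rule did not, so the kinds of nuclei were not chosen alike on this trait. How far that adds to the differences was not tested. Ciita (chr16:10480059-10528418, plus strand) was at 334, 1076 and 750 CPM in cDC nuclei against 36.3, 149 and 166 CPM, a log2 fold change of 2.55 ± 0.33 (edgeR adjusted p = 1.6e-11). H2-Eb1 was at 690, 992 and 724 CPM against 109, 190 and 276 CPM (2.00 ± 0.31, edgeR adjusted p = 5.6e-08). H2-Ob, a chain of the H2-O molecule that tempers peptide loading in the endosome, was at 89, 167 and 102 CPM against 0, 0 and 3.45 CPM (edgeR adjusted p = 1.68e-07), and H2-DMb1, of the peptide loader H2-DM, was the fourth. Both Ciita and H2-Eb1 were called under every alternative run. Among 14 genes of MHC class I presentation, Nlrc5, the class I counterpart of Ciita, was called higher and none lower, with a median of 0.45, and this call was lost by DESeq2, without Pre-T 1 and without Pre-T 2.

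Of 12 tested pan-cDC genes, 5 were higher (Dpp4, Relb, Itgax, Cbfa2t3 and Bcl11a) and 1, Zeb2, was lower, with a median of 1.05. In Ctrl 1, Itgax (22.2 against 36.3 CPM) and Cbfa2t3 (289 against 327 CPM) went the other way. DESeq2 called 3 of the 6, 2 remained without Pre-T 1 and 3 without Pre-T 2. Dpp4 (CD26), a surface peptidase used to sort cDC from monocyte-derived cells, was at 378, 606 and 737 CPM against 109, 101 and 145 CPM, a log2 fold change of 2.38 ± 0.34 (edgeR adjusted p = 9.9e-10), and was called in every alternative run. Endothelial-rule nuclei held Dpp4 too, in 46.2% against 73.6% of cDC nuclei. Zeb2 was at 979, 1233 and 1423 CPM against 3525, 3965 and 2786 CPM (log2 fold change -1.43 ± 0.27, edgeR adjusted p = 1.08e-05). Of 17 tested mature dendritic cell genes, 5 were higher (Traf1, Cd83, Cacnb3, Cd86 and Cd80) and 0 lower, with a median of 1.76, but 0 of these 5 were called by DESeq2, 0 without Pre-T 1, where Cd80 also changed sign (-0.02), and 0 without Pre-T 2.

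Btla, an inhibitory receptor of cDC1 and lymphocytes, was at 222, 470 and 318 CPM against 0, 36.7 and 31 CPM (log2 fold change 3.56 ± 0.43, edgeR adjusted p = 3.32e-13), and was called higher with Havcr2 (TIM-3) among 7 tested T cell costimulation genes, where Vsir (VISTA) was lower. Among 14 Toll-like receptor and sensor genes Tlr11 was higher, at 44.5, 136 and 114 CPM against 0 UMIs, at least 27.5-fold (edgeR adjusted p = 2e-07), and Tlr7 and Tlr8, the sensors of single-stranded RNA, were lower. Tlr11 had a UMI in 19 cDC nuclei, 0 of 320 monocyte-rule nuclei (which allows up to 0.938%) and 0.0699% of endothelial-rule nuclei. Among 18 cytokine and receptor genes, Csf1r (log2 fold change -1.52 ± 0.4, edgeR adjusted p = 0.00809) and Tnfrsf1b were lower and none higher. Among 11 chemokine genes Gpr183, a receptor for oxysterols that guides cDC2, was higher and Cx3cr1 lower. Of 16 genes of lipid handling, Pparg was lower, and of 7 proliferation genes 0 were called. Without Pre-T 1 the calls of these sensor, cytokine, chemokine and lipid genes were lost, Tlr11 included, and Tlr11 was the one of them that DESeq2 called. In Ctrl 1 Gpr183 went the other way.

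The largest differences outside these lists, by the fixed rule for named genes, took in genes with less known roles in dendritic cells. Gm36723, a long noncoding RNA (chr12:25303940-25471979, plus strand) that lies 206800 bases from Id2, its nearest coding gene, was at 245, 554 and 432 CPM against 0, 6.88 and 0 CPM (log2 fold change 6.73 ± 0.57, edgeR adjusted p = 3.97e-28). Kit, the stem cell factor receptor (chr5:75574916-75656722, plus strand), was at 66.7, 251 and 140 CPM against 0, 2.29 and 0 CPM (6.59 ± 0.87, edgeR adjusted p = 1.98e-11). Both were close to absent from monocyte-rule nuclei. Htr7, a serotonin receptor (chr19:35958734-36057507, minus strand), was at 178, 240 and 305 CPM against 0, 13.8 and 0 CPM (4.98 ± 0.57, edgeR adjusted p = 8.69e-15), and Srgap3 at 512, 491 and 432 CPM against 182, 9.18 and 13.8 CPM (4.43 ± 0.44). Strip2 was at 66.7, 52.2 and 191 CPM against 0 UMIs, at least 26.3-fold higher (edgeR adjusted p = 1.52e-06). Lower in cDC nuclei were Pcdh7, at 0 UMIs against 145, 193 and 145 CPM (at least 12.6-fold, edgeR adjusted p = 5.85e-08), Nupr1, at 0 UMIs against 36.3, 168 and 162 CPM (at least 11.7-fold), and Klra2, a Ly49 family receptor gene with close relatives, at 0, 41.8 and 38.1 CPM against 400, 532 and 355 CPM (-3.75 ± 0.49, edgeR adjusted p = 1.23e-11).

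**Figure D3:**
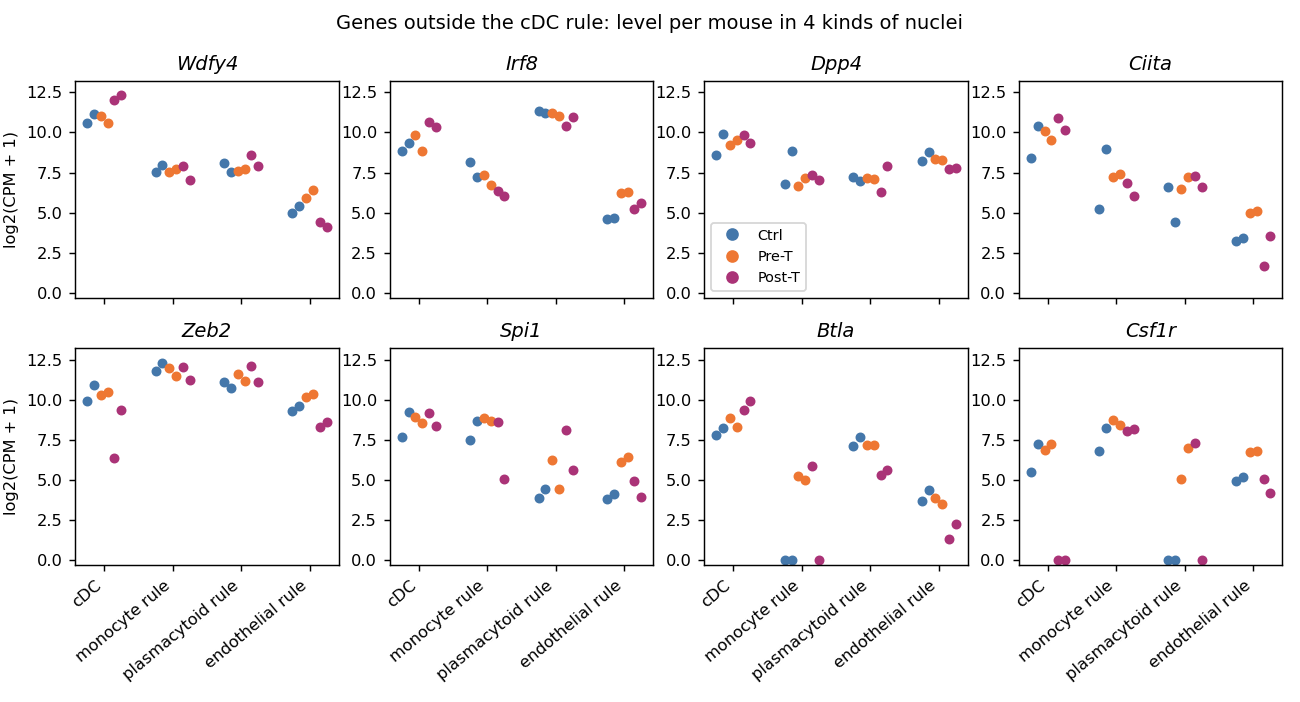
Level of 8 genes outside the cDC rule, as log2(CPM + 1) of the summed UMIs, in cDC, monocyte-rule, plasmacytoid-rule and endothelial-rule nuclei, with 1 point per mouse and colours for Ctrl, Pre-T and Post-T. Wdfy4 is higher in the cDC nuclei of each mouse than in the other kinds, Irf8 is highest in plasmacytoid-rule nuclei in the Ctrl and Pre-T mice, and Zeb2 is higher in monocyte-rule than in cDC nuclei.

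The cDC nuclei were next compared with plasmacytoid-rule nuclei, which held Siglech and at least 2 of Ccr9, Klk1, Cox6a2, Runx2, Tcf4 and Pacsin1 with 0 UMIs of Clec4f and the same other limits. There were 154 in all, with a median per mouse of 1879 to 2156 UMIs. Plasmacytoid dendritic cells share the FLT3 dependence of cDC but secrete type I interferon rather than priming T cells. The fit paired the sums of the 2 Ctrl and the 2 Pre-T mice, and 751 of 8384 genes passed (8.96%), 373 higher in cDC nuclei (4.45%) and 378 lower (4.51%). The count was 290 by DESeq2, and 397 without Pre-T 1.

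Of 10 tested cDC1 genes, 9 were higher and 1, Irf8, was lower, with a median log2 fold change of 3.95 (3.34 with genes at 0 UMIs in 1 kind set to their bound), against -0.07 over all genes. Irf8, which plasmacytoid dendritic cells also need, was at 467, 640, 898 and 457 CPM in the cDC nuclei of Ctrl 1, Ctrl 2, Pre-T 1 and Pre-T 2 and at 2621, 2399, 2384 and 2101 CPM in plasmacytoid-rule nuclei (log2 fold change -2.09 ± 0.26, edgeR adjusted p = 6.36e-14). It was thus above monocyte-rule and below plasmacytoid-rule nuclei in these tests. Wdfy4 was at 1557, 2260, 2120 and 1525 CPM against 276, 186, 195 and 210 CPM (2.94 ± 0.28, edgeR adjusted p = 2.51e-22). Naaa was at 200, 377, 376 and 267 CPM against 0 UMIs, at least 31.8-fold higher (edgeR adjusted p = 3.68e-16). Bcl11a, another factor plasmacytoid cells depend on, was at 245, 301, 386 and 737 CPM against 2138, 2213, 2167 and 2038 CPM (-2.49 ± 0.27, edgeR adjusted p = 1.37e-17), whereas Spi1 was at 200, 603, 491 and 381 CPM against 13.8, 20.7, 75.8 and 21 CPM (3.37 ± 0.45, edgeR adjusted p = 6.27e-12). Among 12 pan-cDC genes, Dpp4, Spi1, Cst3, Relb and Cbfa2t3 were higher, and Kmo, Zeb2 and Bcl11a lower.

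Of 16 tested mature genes, 10 were higher (Traf1, Cd40, Anxa3, Il4i1, Il15, Cd83, Cacnb3, Cd86, Cd80 and Cd274) and 0 lower, with a median of 3.25, or 2.88 with bounds. Cd86, a ligand of the T cell receptor CD28, was at 200, 829, 324 and 203 CPM against 13.8, 20.7, 10.8 and 21 CPM (4.07 ± 0.53, edgeR adjusted p = 2.71e-12). Cd83, Cd86 and Traf1 were called under every alternative run, 3 of the 10 genes were called by DESeq2, and 5 without Pre-T 1. Of 8 MHC class II genes the same 4 as above were higher, with a median of 1.68, and Ciita had a log2 fold change of 2.97 ± 0.34 (edgeR adjusted p = 1e-15). The plasmacytoid rule required no MHC class II UMI either, and how far this adds to the differences was not tested. Of 6 tested cDC2 genes, Sirpa and Cd300a were higher and 0 lower. Among 6 chemokine genes Cx3cr1, Ccr2, Cxcl16 and Gpr183 were higher, among 14 cytokine genes Il1b, Ifngr1 and Csf2ra, and among 3 proliferation genes Top2a and Kif11. Of these, Csf2ra was called under every alternative run, and DESeq2 called neither the cDC2, the chemokine nor the proliferation genes. Without Pre-T 1 the cDC2 and chemokine calls were lost, as were both proliferation calls without Ctrl 1. Il1b, Top2a and Kif11 were at 0 UMIs in Ctrl 2, and 18 of 23 Il1b UMIs were in Pre-T 2. The Kupffer cell marker Timd4 (0, 264, 52.2 and 165 CPM in cDC nuclei) and the monocyte marker F13a1 (156, 490, 0 and 0 CPM) were called higher as well, in neither case under every alternative. Tlr7, the receptor through which plasmacytoid cells sense RNA, was lower (-3.39 ± 0.56, edgeR adjusted p = 7.41e-08).

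By the rule for named genes, Gm36723 was again among the largest differences, at 245, 301, 554 and 432 CPM against 0 UMIs (at least 44.3-fold, edgeR adjusted p = 1.61e-20). Lrrk2, a kinase gene known from Parkinson disease (chr15:91673175-91816120, plus strand), was at 378, 339, 407 and 381 CPM against 0 UMIs, at least 39.7-fold higher (edgeR adjusted p = 5.14e-20), and its cDC levels in these mice were close to each other. Lower in cDC nuclei were Grm8, a glutamate receptor, at 22.2, 113, 0 and 63.5 CPM against 3270, 3929, 3673 and 3425 CPM (-6.59 ± 0.37, edgeR adjusted p = 2.43e-67), and Tmem163, at 22.2, 0, 0 and 0 CPM against 1076, 1199, 823 and 830 CPM (-7.37 ± 0.55, edgeR adjusted p = 1.25e-37). Dntt, the terminal transferase of lymphoid precursors, was at 0 UMIs and at least 13.3-fold lower.

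**Figure D4:**
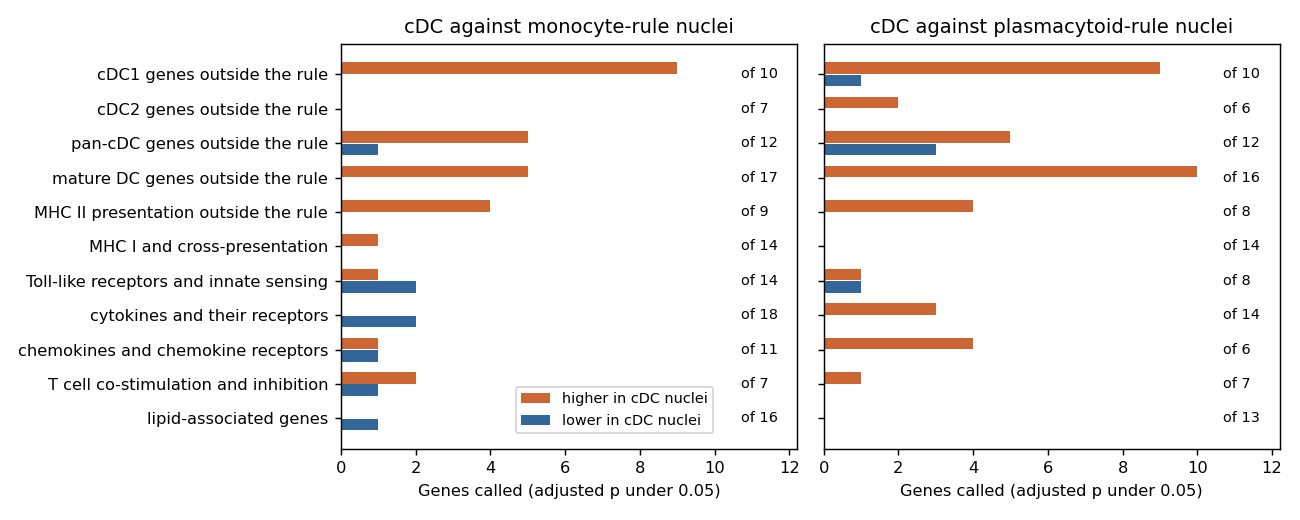
Number of genes in each list that were higher or lower in cDC nuclei (edgeR adjusted p under 0.05) than in monocyte-rule nuclei on one side and plasmacytoid-rule nuclei on the other, with the number tested at the right. In both comparisons 9 of 10 tested cDC1 genes and 4 MHC class II genes were higher, and 5 mature genes in the first and 10 in the second, where 2.82% and 8.96% of all genes were called. The cDC rule alone required an MHC class II UMI.

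Markers of other cells were looked for in the cDC nuclei. Every one of the 87 held a hepatocyte transcript, and the hepatocyte list summed to 3738 to 19796 CPM over the 6 mice, against 9910 to 32647 CPM in all other kept nuclei. Among the markers, the natural killer cell genes Ncr1, Klrb1c, Eomes and Prf1, the neutrophil genes S100a8, S100a9 and Retnlg, the bile duct genes Krt19, Krt7 and Epcam and the plasma cell gene Mzb1 were at 0 UMIs. Other genes of the same lists were found, among them Gzma, Csf3r, Sox9 and Jchain. T cell list genes were in 8 nuclei (0 to 83.1 CPM), the natural killer list in 1, the neutrophil list in 5, the B cell list in 30, the Kupffer cell list in 51, the endothelial list in 41 (0 to 665 CPM), the monocyte list in 66 and the plasmacytoid list in 68, the last holding some genes that cDC share. At least 3 UMIs were found in 31 nuclei for the plasmacytoid list, 30 for the monocyte list, 15 for the Kupffer cell list and 12 for the endothelial list. A cDC1-gene nucleus of Pre-T 2 held 32 UMIs of the plasmacytoid list and 0 of the cDC1 list outside the rule. A cDC2-gene nucleus of Ctrl 2 held 23 UMIs of the monocyte list. Whether such nuclei are plasmacytoid cells or monocytes was not tested. Proliferation genes were in 14 nuclei, with at least 3 UMIs in 4. Of genes the study discusses with dendritic cells, Il6 and Il1rl1 each had a UMI in 2 of 87 nuclei, 2.3% (interval 0.28 to 8.06%), against 0.196% and 0.182% of endothelial-rule nuclei. The bile duct list was in 8 nuclei through its other genes (Pkhd1, Bicc1 and Sox9), the plasma cell list in 23 (Xbp1, Sdc1 and Jchain) and the stellate and fibroblast list in 28. Of the cDC nuclei, 4 were in the top 5% of doublet scores of their library and 5 had over 5000 UMIs.

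Between diets, few of all genes passed in edgeR with all 6 mice, and none of these was in the lists of dendritic cell genes. UMIs were summed over the cDC nuclei of each mouse and fitted for all 3 groups, with the Ctrl mice shared between both comparisons against them. Pre-T against Ctrl gave 11 of 10142 genes (0.108%), 1 higher and 10 lower, Post-T against Ctrl 16, all lower (0.158%), and Post-T against Pre-T 2, both lower (0.0197%). DESeq2 called 0, 21 and 0, and 444, 581 and 603 genes had an unadjusted p under 0.05 in edgeR. In all 3 comparisons with all 6 mice in edgeR, 0 genes passed in the lists of cDC1, cDC2, pan-cDC and mature dendritic cell genes, of MHC class I and II presentation, and of lipid handling. With so few of all genes called, lists of this size would rarely hold a call. The absence of calls thus does not show that these genes held steady. For Post-T against Ctrl, Zeb2 of the pan-cDC list was called lower by DESeq2 and in edgeR without Post-T 2, and Cd80 of the mature list was called higher without Post-T 2. In Pre-T against Ctrl the median log2 fold change was 0.21 for 12 tested cDC1 genes, 0.18 for 9 cDC2 genes, 0.33 for 12 pan-cDC genes, 0.95 for 17 mature genes (0.24 with bounds) and 0.50 for 10 MHC class II genes (0.31 with bounds), against 0.33 for all genes (0.00 with bounds). It was 0.81 for 14 MHC class I genes, 13 of them positive, and 1.44 for 16 lipid genes (0.68 with bounds), 14 of them positive. Of all 10142 genes, 6110 were positive in Pre-T against Ctrl. In Post-T against Ctrl it was -0.11 for the cDC1 genes (0.03 with bounds) and -0.04 for the MHC class II genes (0.00 with bounds), against -1.18 for all genes (0.00 with bounds), of which 5528 were at 0 UMIs in one group.

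The levels of the main genes are given for every mouse with Ctrl first, then Pre-T and last Post-T, and mouse 1 before mouse 2 in each group. Wdfy4 stood at 1557, 2260, 2120, 1525, 4154 and 5073 CPM, where the Ctrl and Pre-T mice overlapped and the Post-T mice were higher. Irf8 was at 467, 640, 898, 457, 1578 and 1309 CPM, with the same order of groups. Neither gene passed the test, and the Post-T sums hold 4 and 2 nuclei, of which 1 in each was a cDC1-gene nucleus. By the cDC1 list outside the rule, which includes both genes, the nuclei of Post-T 1 held 21, 13, 28 and 45 UMIs. Those of Post-T 2 held 58 and 7. The same nuclei held 1, 2, 2 and 0, and 0 and 2 UMIs of the cDC2 list. Ciita was at 334, 1356, 1076, 750, 1911 and 1145 CPM and Cd74, the MHC class II invariant chain, at 1557, 1394, 2371, 1194, 2077 and 818 CPM, with the groups overlapping. Zeb2 was at 979, 1921, 1233, 1423, 83.1 and 655 CPM, lowest in Post-T (log2 fold change -2.89 ± 0.80 for Post-T against Ctrl, edgeR adjusted p = 0.118, and called by DESeq2 and without Post-T 2), and Sirpa at 133, 678, 355, 356, 0 and 0 CPM.

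The 10 genes that were lower in Pre-T than in Ctrl included Sult2a8, Serpina1e, Cyp3a25, Cyp2c29 and Afm, all known as genes of hepatocytes. Sult2a8, a bile acid sulfotransferase, was at 1357 and 151 CPM in Ctrl and at 0 and 25.4 CPM in Pre-T (log2 fold change -5.68 ± 0.85, edgeR adjusted p = 1.27e-07). Serpina1e, an alpha-1 antitrypsin gene with near-identical copies that makes its value uncertain, was at 1824 and 339 CPM against 0 and 63.5 CPM (-4.99 ± 0.75, edgeR adjusted p = 1.27e-07), and Cyp3a25, a cytochrome P450 also with close copies, at 2402 and 527 CPM against 62.7 and 216 CPM (-3.29 ± 0.63, edgeR adjusted p = 0.000611). The groups did not overlap, which the rule for named genes required and which held for 3554 of all 10142 genes. Ctrl 1 was well above Ctrl 2 for these 3 genes, whereas Afm was at 267 and 301 CPM in Ctrl. A single Ctrl 1 nucleus of 13631 UMIs, the deepest of the 87, held 71.6% of the Sult2a8 UMIs and 60.7% of those of Cyp3a25, and it held the most UMIs of any nucleus for 8 of the 11 genes. In all other kept nuclei 10 of the 11 differed in the same direction, with Sult2a8 at 1360 and 1031 CPM in Ctrl and 102 and 129 CPM in Pre-T. The part of hepatocyte RNA in these calls was not tested. The count was 3 without nuclei over 5000 UMIs (2 higher and 1 lower), 4 without high doublet scores (2 and 2) and 5 with 0 exclusion UMIs (2 and 3), so the excess of lower genes was not kept there. Leaving out 1 mouse gave 2 and 32 (without Ctrl 1 and Ctrl 2), 0 and 3 (without Pre-T 1 and Pre-T 2), and 27 and 29 (without Post-T 1 and Post-T 2), where the Post-T mice enter the shared estimate of the spread.

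F13a1, the coagulation factor XIII subunit of monocytes and macrophages, was at 156 and 490 CPM in Ctrl and 0 UMIs in Pre-T, at least 16.3-fold lower (edgeR adjusted p = 0.000754). It was the gene of the 11 that did not move the same way in all other kept nuclei, where it stood at 8.18 and 1.02 CPM in Ctrl and 15.3 and 7.19 CPM in Pre-T, and its UMIs lay in 2 nuclei. The 1 gene called higher, Nrg1, a growth factor of the EGF family that falls outside the rule for named genes and was picked out after its values were seen, was at 554 CPM in Pre-T 1 and at 0 in the 5 other mice, and 96.2% of its UMIs came from 1 nucleus.

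**Figure D5:**
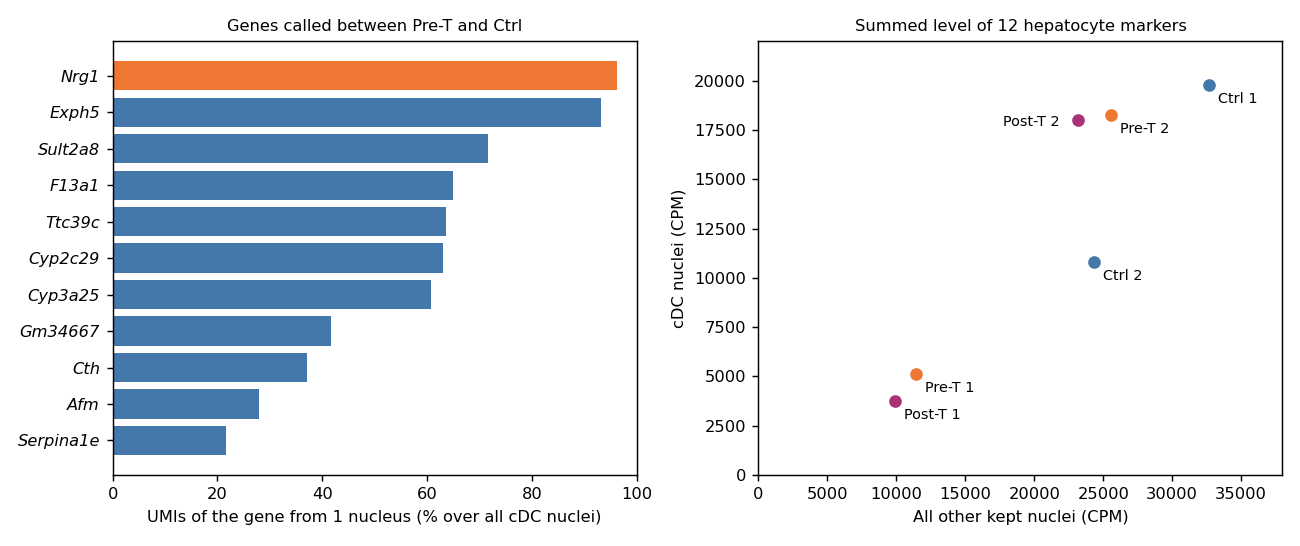
Left, for each of the 11 genes called between Pre-T and Ctrl, the share of its UMIs (percent) that came from the 1 cDC nucleus holding most of them, coloured by the group of that nucleus (blue Ctrl, orange Pre-T). Right, the sum of 12 hepatocyte markers (CPM) in the cDC nuclei against that in all other kept nuclei, with 1 point per mouse: 7 of the 11 genes had over 50% of their UMIs in 1 nucleus, and Ctrl 1 was highest on both axes (19796 and 32647 CPM).

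In Post-T against Ctrl, Ghr, the growth hormone receptor, was at 3537 and 2147 CPM in Ctrl, 533 and 724 CPM in Pre-T and 83.1 and 0 CPM in Post-T (log2 fold change -6.25 ± 1.01 for Post-T against Ctrl, edgeR adjusted p = 7.05e-06), and was called in every alternative run. In all other kept nuclei it was at 5709 and 5394 CPM, 3168 and 3021 CPM, and 1491 and 2271 CPM. Cyp3a25 at 0 UMIs was at least 10.3-fold lower (edgeR adjusted p = 4.13e-05), and Cps1, the first enzyme of the urea cycle, was at 1779 and 1318 CPM against 83.1 and 327 CPM (-3.82 ± 0.85, edgeR adjusted p = 0.00665). The hepatocyte list had 4 of 12 tested genes lower, Cps1, Mup20, Cyp3a11 and Serpina1c, with a median of -1.77 (also with bounds) against -1.18 for all genes (0.00 with bounds). Of the 16 genes, 15 differed in the same direction in all other kept nuclei, the exception being Ppara, and for 12 the deepest of the 87 nuclei held more UMIs than any other nucleus, though over 50% of the UMIs for just 2. The count was 1 without Ctrl 1, 46 without Ctrl 2 and 10 without Post-T 1. Post-T against Pre-T gave Mup20, of the major urinary protein family with its many related genes, at 501 and 1995 CPM against 0 UMIs (at least 7.11-fold lower, edgeR adjusted p = 0.00019), and Tmcc3, at 574 and 724 CPM against 0 UMIs (at least 3.88-fold lower, edgeR adjusted p = 0.0201). Both differed in the same direction in all other kept nuclei.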

How the data were processed

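Livers of 6 mice (2 per group) were profiled by 3' single-nucleus RNA-seq. The authors deposited a matrix of UMI counts per gene and barcode for each library (32285 genes), made with Cell Ranger 6.1.1 on mm10 according to the submitters' processing notes. Whether intronic reads were counted is not given in the sources used here. Groups came from the labels. GRCm38 (the same build) positions came from GENCODE vM21.

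Barcodes were kept with over 200 and under 5000 genes and under 5% mitochondrial UMIs, leaving 39012 of 41882. The cDC rule and gene lists were chosen with earlier results of these data known. A doublet caller (Scrublet through scanpy 1.11.5) marked at most 0.0649% of a library and was not used, so no doublets were removed. Instead, nuclei in the top 5% of doublet scores were left out as an alternative.

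Counts were summed per mouse and kind of nucleus and tested with edgeR 4.0.16 (TMM, quasi-likelihood, R 4.3.3, two-sided), with Benjamini-Hochberg adjustment over all genes tested and a threshold of 0.05. Comparisons of diets used genes with at least 3 counts and 1 fit of all 6 mice (3 residual degrees of freedom). Comparisons of kinds of nuclei used genes with at least 10 counts, mice with at least 10 nuclei of both kinds and the mouse as a block. The code was tested on simulated data. The genes of the rules were left out of the calls. Where a group had 0 UMIs, folds are lower bounds against a floor of 3 counts over the group. Shares of cDC nuclei were compared over mice by exact permutation tests (scipy 1.17.1). P-values for the cDC share measure the spread between mice, and each diet group had cages of its own. Those of edgeR set a change against the spread between mice (diets) or of the differences within mice (kinds of nuclei). The latter covered 3 mice (monocyte rule) or 4 (plasmacytoid rule). This edgeR spread is drawn largely from all genes together, not from each gene alone. A gene that differs widely between the 2 mice of a group can thus still pass, as Nrg1 did (554 and 0 CPM in Pre-T).

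Alternatives were DESeq2 1.42.0, other size factors and count minimums, a replicate block, stricter rules, thinning to 500 UMIs (seed 1), and leaving out each mouse. Leaving out high doublet scores, cDC nuclei over 5000 UMIs, or those with Clec9a and Zbtb46 alone, and fitting just the Ctrl and Pre-T mice, were chosen after seeing the data. Named genes were the 10 with the largest change among those called with a mean of at least 50 CPM and no overlap between groups (between kinds, 10 per direction with the same direction in every mouse), called list genes, and the 6 highest genes of each list.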

Additional observations from a re-analysis of the deposited data

Results flagged for a closer look

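Some barcodes outside the limits met the rest of the cDC rule, which is a signal in data that the comparisons did not use. Among barcodes with 5000 genes or more, 4 of 1014 in the Pre-T mice did, against 0 of 440 in the Ctrl mice. Among barcodes at or over the limit on mitochondrial UMIs, 6 of 358 in the Pre-T mice and 1 of 616 in the Post-T mice did, against 0 of 61 in the Ctrl mice. A count of 0 among 61 barcodes allows a share of up to 4.92%, above the share in Pre-T. The part of doublets or damaged nuclei in these barcodes was not tested.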

How the results depend on the processing

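With nuclei thinned to 500 UMIs, at least 3 of the 7 genes required, or Ptprc+ nuclei as the denominator, the difference in cDC share was 0.0683, 0.158 and 0.0954 percentage points for Pre-T minus Ctrl, -0.0153, -0.044 and -0.748 for Post-T minus Ctrl (-0.0567 with 0 exclusion UMIs), and -0.0836, -0.202 and -0.843 for Post-T minus Pre-T. As ratios of mean shares, Pre-T to Ctrl was 3, 3.96 and 1.09 in these 3 settings, against 3.17 in the main one. Post-T to Ctrl was 0.551, 0.176 and 0.265, against 0.379. Western diet minus Ctrl turned to -0.326 among Ptprc+ nuclei. The cDC1-gene share for Pre-T minus Ctrl turned negative when thinned (-53.6), with 0 exclusion UMIs (-21.5), with at least 3 genes (-14.6), without nuclei over 5000 UMIs (-2.54) and without those with Clec9a and Zbtb46 alone (-0.0505), so its direction was not stable. In these settings Post-T minus Ctrl was 0, 30, 29.2 and 46.7 (the first 4), Post-T minus Pre-T was 53.6 when thinned and 55.1 without Clec9a and Zbtb46 alone, and Western diet minus Ctrl was -35.7, 4.26 and 0 (the first 3).

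Pre-T against Ctrl gave 0 genes by DESeq2, 19 with RLE size factors, 19 with at least 10 counts, 5 with 0 exclusion UMIs, 4 without high doublet scores, 3 without nuclei over 5000 UMIs, 43 without nuclei with Clec9a and Zbtb46 alone, 26 with the Ctrl and Pre-T mice alone, and 0 to 32 leaving out 1 mouse. Post-T against Ctrl gave 1 with 0 exclusion UMIs, 6 without high doublet scores, 6 without nuclei over 5000 UMIs and 1 to 46 leaving out 1 mouse. Post-T against Pre-T gave 0 by DESeq2, 5 with at least 10 counts, 1 with 0 exclusion UMIs and 0 to 4 leaving out 1 mouse. With RLE size factors it gave 2 higher and 1 lower gene (0 and 2 with TMM), and the median log2 fold changes of all genes went from 0.33, -1.18 and -2.19 to 0.09, -1.01 and -1.77. A fit without 1 mouse takes the lone mouse of that group to vary like the others. With a replicate block the counts were 3, 12 and 1. The mice share only a number: deviations of same-numbered mice correlated by -0.06, -0.03 and 0.01 over 5618 genes.

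Against monocyte-rule nuclei, the count was 67 by DESeq2, 159 with no mouse block, 469 without nuclei over 5000 UMIs and 63 to 453 leaving out 1 mouse, and Cd80 had a log2 fold change of -0.02 without Pre-T 1 and 2.22 without Ctrl 1. Against plasmacytoid-rule nuclei it was 290, 482 with no mouse block, and 397 to 662. Of 574 recomputed values of the genes named against monocyte-rule nuclei, 457 kept their direction and side of the threshold, as did 663 of 753 against plasmacytoid-rule nuclei. The causes were not tested. A fit without called doublets was not run, since the caller marked almost none, and a test of cDC1-gene against cDC2-gene nuclei was not run, since 1 mouse had enough of both. The 18149 UMIs of the Post-T cDC nuclei limit every Post-T value.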
